A study of Homo sapiens with 6 samples.

Results

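The 40 genes described here encode the kinases that drive mitosis, the spindle checkpoint, the kinetochore, the machinery that separates chromosomes and daughter cells, and the transcription factors and proliferation markers that go with them. They were taken by name from a table of raw read counts for 20532 genes. Of these, 13988 passed a filter on low counts and were tested, and all 40 mitotic genes were among them; the lowest count of any of them in any library was 237. The libraries came from ACHN, a human renal carcinoma line that the labels assign to clear cell renal cell carcinoma. Stable lines had been made with a lentivirus that carried either a negative control short hairpin RNA (shCtrl) or a hairpin against DNAJC2 (shDNAJC2), which encodes a ribosome-associated co-chaperone. Both groups were therefore transduced cells, and they differed in the hairpin. RNA enriched for mRNA was sequenced from 3 libraries of each group, named here shCtrl 1, 2 and 3 and shDNAJC2 1, 2 and 3. They were described as biological replicates, but no label said whether they came from separate transductions or cultures, so p-values measure only the spread between these libraries.

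Entry into mitosis is driven by the kinase CDK1 bound to cyclin B. The spindle checkpoint then holds CDC20, the activator of the anaphase-promoting complex, until every kinetochore, the protein plate that ties a chromosome to the spindle, has captured microtubules; release of CDC20 lets cohesin be cut and cyclin B be destroyed. The mRNAs of these genes are known to peak together before and during mitosis. Many of their promoters carry the cell cycle genes homology region, or CHR, which is bound by the MuvB proteins together with MYBL2 and FOXM1 in dividing cells, and CCAAT boxes, which are bound by NF-Y.

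Promoter sequence is described here because many promoters of these genes are known to carry these elements. Of the 40 genes, 32 had an entry in the RefSeq table of promoters (GRCh38.p14, 250 bases before to 50 after the start of the gene). The letters TTTGAA or TTTAAA, the usual CHR forms, were found on either strand in 25 of these 32 windows (78.1%), against 23.99% of 35116 windows of the same length in the table. Within 50 bases of the start they were found in 21 of 32 windows (65.6%), against 7.62% of all windows. CCAAT, on either strand, was found in 24 windows (75%, against 34.6% of all), and 17 windows held at least 2 copies (53.1%, against 10.8%). Both kinds of letters were found in 20 of the 32 windows (62.5%, against 9.27%). The E2F letters TTTCCCGC or TTTGGCGC were found in 2 windows (6.25%, against 2.27%). Only these exact letters were searched, so other forms of an E2F site were not counted. A match describes the sequence and does not show that a factor was bound. CCNA2, CDC25B, CDC25C, BUB1, SPC24, AURKB and MYBL2, whose windows held no CHR match, were called lower in the fit without shCtrl 3 described below. The genes whose windows held a CHR match were called lower as well, except MAD2L1. Whether the matches went with the changes was not tested.

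The 6 sequences below belong to the members with the smallest unadjusted p over all 6 libraries that had an entry, and show how those letters are arranged. None of these genes passed the adjusted threshold over those libraries. Each is the 250 bases before the start, 5′ to 3′ on the gene's own strand, with the matches in capitals; TTCAAA and ATTGG are the reverse complements of TTTGAA and CCAAT. CDC20 is at chr1:43358731-43358980 (plus strand), PLK1 at chr16:23678639-23678888 (plus), CDCA8 at chr1:37692266-37692515 (plus), INCENP at chr11:62123761-62124010 (plus), MKI67 at chr10:128126424-128126673 (minus) and MYBL2 at chr20:43666864-43667113 (plus), all on GRCh38.p14. GENCODE 29 places the start of these genes, MKI67 excepted, inside or before the window shown, so that other transcripts begin within or upstream of it.
CDC20: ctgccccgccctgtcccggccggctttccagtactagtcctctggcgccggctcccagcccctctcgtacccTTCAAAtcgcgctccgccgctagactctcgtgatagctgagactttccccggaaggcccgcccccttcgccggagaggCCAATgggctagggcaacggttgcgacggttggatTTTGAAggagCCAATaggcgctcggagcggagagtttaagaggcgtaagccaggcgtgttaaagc
PLK1: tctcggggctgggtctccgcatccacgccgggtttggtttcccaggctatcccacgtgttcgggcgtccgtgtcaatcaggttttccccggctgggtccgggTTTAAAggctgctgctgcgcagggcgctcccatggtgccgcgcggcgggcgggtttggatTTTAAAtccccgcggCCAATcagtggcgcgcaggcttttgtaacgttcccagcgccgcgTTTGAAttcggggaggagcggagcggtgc
CDCA8: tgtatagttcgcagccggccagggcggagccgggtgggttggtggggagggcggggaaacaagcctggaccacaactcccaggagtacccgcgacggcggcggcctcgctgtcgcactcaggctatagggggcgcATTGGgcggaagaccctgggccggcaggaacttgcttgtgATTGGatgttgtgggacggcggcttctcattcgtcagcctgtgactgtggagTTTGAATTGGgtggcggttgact
INCENP: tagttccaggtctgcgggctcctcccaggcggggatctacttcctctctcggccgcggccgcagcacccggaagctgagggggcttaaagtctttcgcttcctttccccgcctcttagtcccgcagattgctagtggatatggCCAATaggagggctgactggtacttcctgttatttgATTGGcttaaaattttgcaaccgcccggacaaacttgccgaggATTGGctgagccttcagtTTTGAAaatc
MKI67: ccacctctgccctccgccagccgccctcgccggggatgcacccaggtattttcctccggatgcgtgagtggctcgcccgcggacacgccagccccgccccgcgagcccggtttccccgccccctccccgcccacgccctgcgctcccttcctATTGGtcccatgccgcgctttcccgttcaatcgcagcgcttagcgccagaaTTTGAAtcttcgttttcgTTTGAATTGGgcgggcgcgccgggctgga
MYBL2: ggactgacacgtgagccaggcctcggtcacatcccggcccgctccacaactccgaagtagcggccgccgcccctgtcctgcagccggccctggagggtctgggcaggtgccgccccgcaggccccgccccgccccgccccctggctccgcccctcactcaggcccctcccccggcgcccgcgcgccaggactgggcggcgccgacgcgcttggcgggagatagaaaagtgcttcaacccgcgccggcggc
Counted from the start, with -1 the last base before it, the first base of TTTGAA stood at -29 in PLK1, -23 in CDCA8, -10 in INCENP, and -47 and -29 in MKI67. In CDC20 the nearer copy stood at -65, between CCAAT copies at -100 and -55. In CDCA8 and MKI67 the TTTGAA closest to the start shared its last base with an ATTGG. The MYBL2 window held none of the exact letters searched for, which does not show that it lacks other forms of these elements.

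Sequencing depth was 17491462 to 25760291 counts per library, and 15900 to 16336 genes had at least 1 count. Levels below are in CPM, read counts scaled to the depth of the library and, by TMM, to its composition. DNAJC2 itself measured 76.7, 69.8 and 86.5 CPM across shCtrl 1 to 3, against 51.2, 50.4 and 38.5 CPM across shDNAJC2 1 to 3. Every knockdown library was below every control library, and shCtrl 3 was the highest of all. The fitted log2 fold change (shDNAJC2 over shCtrl, here and throughout) was -0.74 (SE 0.15), with an unadjusted p of 0.00182 and an adjusted p of 0.429 in edgeR's quasi-likelihood test over all genes. The adjusted p of DNAJC2 was 0.0364 with DESeq2, and 0.00799 in edgeR's test without shCtrl 3. The control library shCtrl 3 stood apart from its group. The median absolute log2 difference over all tested genes was 0.080 between shCtrl 1 and 2 and 0.388 between shCtrl 1 and 3. Between shCtrl 3 and shDNAJC2 1, 2 and 3 it was 0.260, 0.148 and 0.252. The knockdown library shDNAJC2 3 was about as far from shCtrl 1 and 2 (0.220 and 0.227) as from shDNAJC2 1 and 2 (0.241 and 0.215). Because shCtrl 3 stood apart, results are given with and without it. Each version was fitted with edgeR's quasi-likelihood test on the whole table. Leaving out shCtrl 3 followed from its values, so the fit on the other 5 libraries describes those libraries and is not independent support.

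Of 10 renal epithelial markers, 4 were above 1 CPM in every library, among them PAX8 at 2.83 to 4.66 CPM and KRT18 at 66.3 to 90.1 CPM. CDH16 had 0 counts and PAX2 at most 1 count in any library, where a count of 0 allows up to 3. The renal list summed to 230.4, 242 and 167 CPM in the control libraries and to 150.1 to 156 CPM in the knockdown libraries. That order came from CDH6, a cadherin, at 122, 126 and 17.8 CPM across shCtrl 1 to 3, against 26.1, 22.8 and 43.0 CPM across shDNAJC2 1 to 3. The 9 other markers summed to 108, 115.5 and 149 CPM in control libraries 1 to 3, against 124, 130 and 113 CPM in knockdown libraries 1 to 3. CA9, a carbonic anhydrase, measured 0.858, 1.28 and 8.85 CPM across shCtrl 1 to 3, against 8.59, 8.33 and 7.71 CPM across shDNAJC2 1 to 3. All 8 fibroblast and mesenchymal markers were above 1 CPM in every library, and they summed to 4509, 4503 and 1446 CPM across shCtrl 1 to 3, against 1303, 1338 and 1942 CPM across shDNAJC2 1 to 3. The order of this sum, close to that of the mitotic genes, was set by the 3 collagen genes COL1A1, COL1A2 and COL3A1. The 5 other markers summed to 510.5, 531 and 549 CPM across shCtrl 1 to 3, against 506, 508 and 480.3 CPM across shDNAJC2 1 to 3. THY1, one of the 5, had its highest level in shCtrl 3, at 291 CPM. PDGFRA, PDGFRB, DCN and LUM were lower in shCtrl 3 (129, 96.2, 18.9 and 14.1 CPM) than in shCtrl 1 (163, 125, 23.3 and 22.7 CPM). They were lower there than in shCtrl 2 as well. Without shCtrl 3, 4 of the 8 markers were called lower (50%, against 17.0% of all genes tested). The genes set apart in these sums were chosen after their values were seen, and their part in the results below was not tested. Of the 6 endothelial markers, CDH5 had 0 counts and the sum was 58.3 to 72.3 CPM in the controls and 56.6 to 58.3 CPM in the knockdown libraries. Most of that sum was TEK, at 52.7 to 70.5 CPM in the controls and 50.1 to 54.0 CPM in the knockdown libraries. KDR measured 0.286, 0.302 and 3.02 CPM across shCtrl 1 to 3, against 2.20, 2.58 and 1.80 CPM across shDNAJC2 1 to 3. Without shCtrl 3, 2 of 5 tested endothelial markers rose and 1 fell (40% and 20%, against 17.8% and 17.0% of all genes). Of the 8 blood and immune markers, CD3E had 0 counts, PTPRC had at most 3 in any library, and the sum was 80.2 to 94.7 CPM in the controls and 72.3 to 81.7 CPM in the knockdown libraries. Nearly all of that sum was CD68, at 79.3 to 92.5 CPM in the controls and 71.3 to 80.5 CPM in the knockdown libraries. CD14, the next highest, was at 0.695 to 1.97 CPM.

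The mitotic genes were lower in the knockdown libraries than in shCtrl 1 and 2, and they were about as low in the control library shCtrl 3. The 40 genes took 0.739% and 0.745% of all counts in shCtrl 1 and 2 but 0.380% in shCtrl 3, against 0.424%, 0.397% and 0.493% across shDNAJC2 1 to 3. Averaged over the 40 genes, log2 CPM relative to the mean of the 6 libraries was 0.46, 0.49 and -0.36 across shCtrl 1 to 3, against -0.22, -0.31 and -0.07 across shDNAJC2 1 to 3. In RNA from bulk cells, fewer cells in mitosis and less RNA per cell cannot be told apart. shCtrl 1 and 2 were nearly alike, with a median absolute difference of 0.045 (log2) over the 40 genes. shCtrl 3 differed from shCtrl 1 by 0.788, and for 11 genes by more than 2-fold, yet from shDNAJC2 2 by 0.117.

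**Figure D1:**
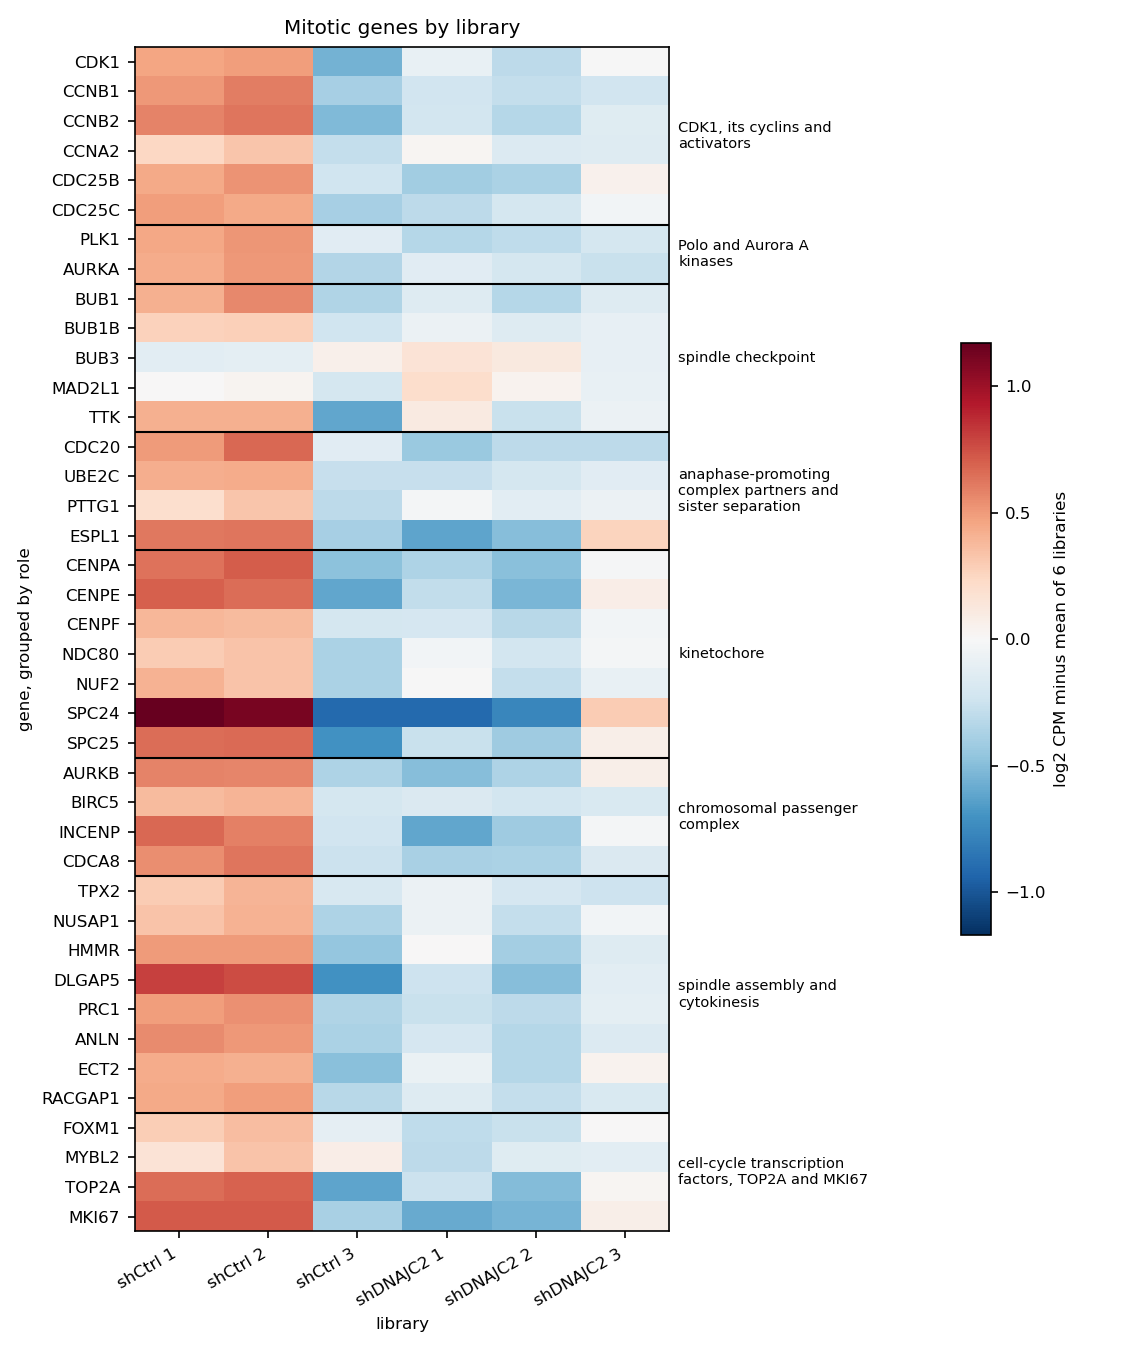
Level of each of the 40 mitotic genes (rows, grouped by role) in each of the 6 libraries (columns), as log2 CPM minus the gene's mean over the 6 libraries; red is above and blue below that mean. shCtrl 1 and 2 are red in nearly every row, shCtrl 3 is blue in most rows like the knockdown libraries, and BUB3 and MAD2L1 break the pattern.

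Over all 6 libraries, none of the 40 genes passed an adjusted p under 0.05 in edgeR's test (0% of the 13988 genes tested were called lower, and the smallest adjusted p of any gene was 0.429). Fitted log2 fold changes were negative for 38 of the 40 and ranged from -1.07 (SPC24) to 0.12 (BUB3), with a median of -0.45 against -0.02 over all tested genes. At an unadjusted p under 0.05, 5 of the 40 were lower (PLK1, CDC20, MYBL2, INCENP and CDCA8), where 7.33% of all tested genes were. The other tools also called no member: the smallest adjusted p of a member was 0.128 with DESeq2 and 0.455 with limma-voom. Every knockdown library was below every control library for 3 members, PLK1, CDC20 and MYBL2, while 8.43% of all tested genes had that order, so the share among the members was near the background.

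Without shCtrl 3, 38 of the 40 genes fell, where 17.0% of the 14201 genes tested were called lower and 17.8% higher, and no member rose. The median log2 fold change was -0.67 (all tested genes, -0.01) and the range -1.48 to 0.18. The exceptions were BUB3 and MAD2L1, which did not pass. Each knockdown library was below both shCtrl 1 and 2 for these same 38 genes, an order that 32.8% of all tested genes had. Relative to the mean of shCtrl 1 and 2, the median member stood at 62.7% in the knockdown libraries and at 55.9% in shCtrl 3. For 38 of the 40 genes shCtrl 3 was nearer to the knockdown mean than to shCtrl 1 and 2, as it was for 10434 of the 13988 genes tested. shCtrl 3 was the lowest of the 6 libraries for 24 members, and 21.7% of all tested genes were lowest there. It was below shDNAJC2 3 for 35 members. Among the knockdown libraries shDNAJC2 3 was the highest for 27 members.

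**Figure D2:**
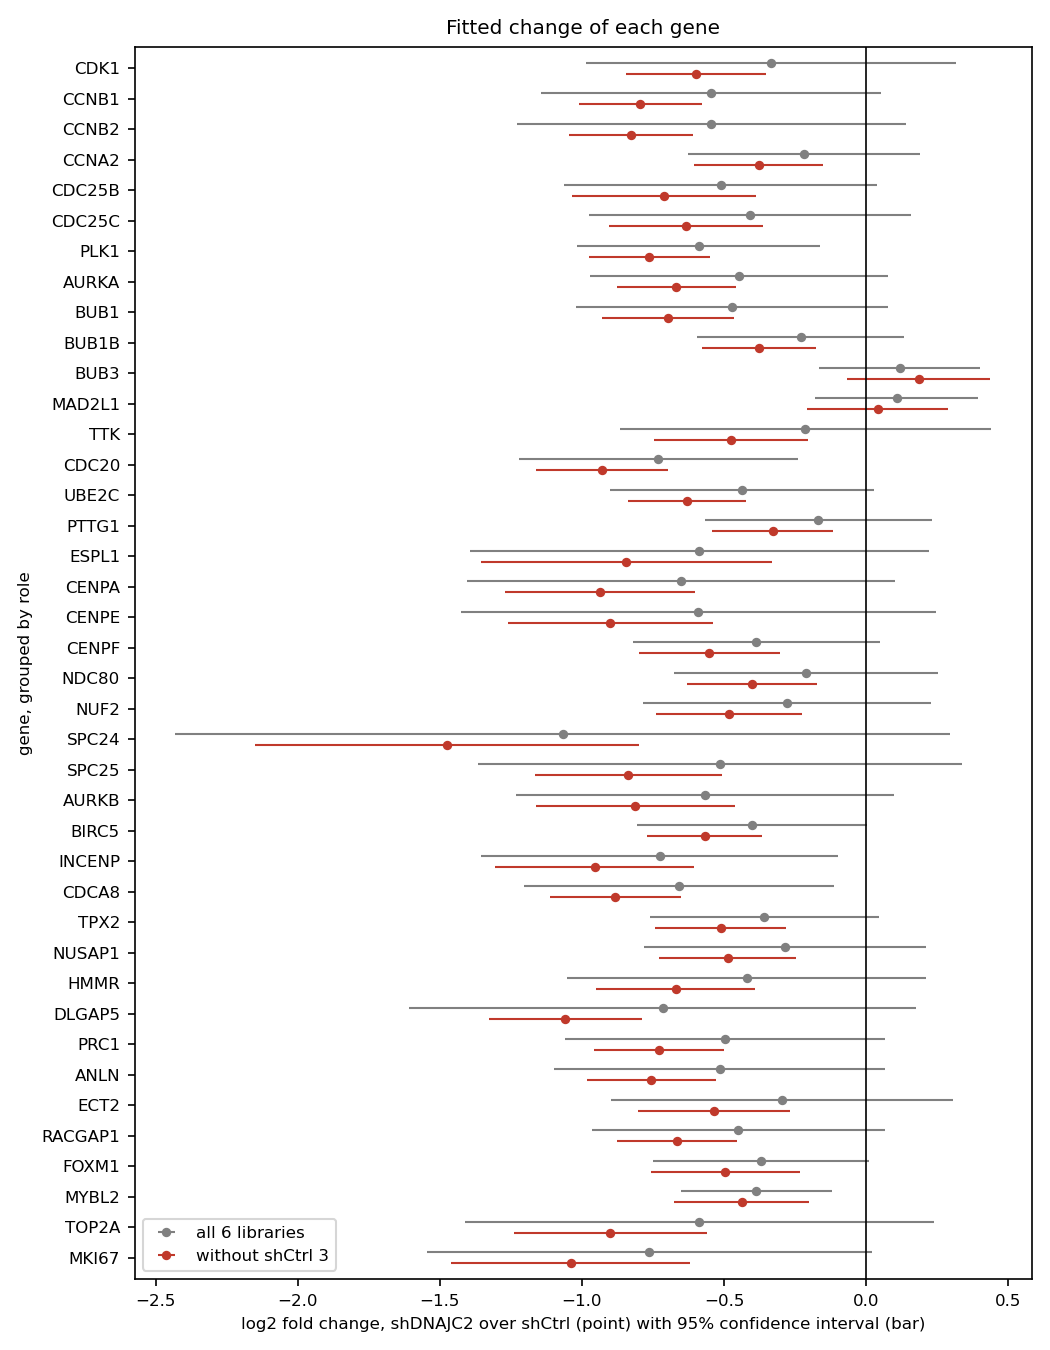
Fitted log2 fold change (shDNAJC2 over shCtrl) of each mitotic gene with its 95% confidence interval, over all 6 libraries (grey) and without shCtrl 3 (red). Without shCtrl 3 the intervals are narrower and, except for BUB3 and MAD2L1, lie below 0.

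CDK1, its cyclins and the phosphatases that activate it formed the first group. All 6 fell without shCtrl 3 (median -0.67, range -0.83 to -0.38), and none passed over all 6 libraries (median -0.46). CCNB1, which encodes the main mitotic cyclin, measured 332, 353 and 177 CPM across shCtrl 1 to 3, against 199.6, 192 and 199 CPM across shDNAJC2 1 to 3. The knockdown libraries lay close to one another, below shCtrl 1 and 2 and above shCtrl 3. Its log2 fold change was -0.55 (SE 0.25, adjusted p = 0.430) with and -0.79 (SE 0.10, adjusted p = 0.000694) without shCtrl 3. CDC25B, a phosphatase that starts the activation of CDK1, measured 260.4, 277 and 163 CPM in control libraries 1 to 3, against 144, 148 and 198 CPM in knockdown libraries 1 to 3. shCtrl 3 was above shDNAJC2 1 and 2 and below shDNAJC2 3. CDC25B was at -0.51 (SE 0.23, adjusted p = 0.429) over 6 libraries and -0.71 (adjusted p = 0.00667) over 5. CDK1, CCNB2, CCNA2 and CDC25C had their lowest level in shCtrl 3, at 48.8%, 46.0%, 67.7% and 55.5% of the mean of shCtrl 1 and 2.

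PLK1 and AURKA encode kinases that mature the spindle poles and switch on CDK1. PLK1 (ENSG00000166851, chr16:23677656-23690367 on GRCh38) measured 220.1, 230.4 and 147 CPM across shCtrl 1 to 3 (mean 199 ± 45.6 SD, n = 3), against 127, 131 and 139 CPM across shDNAJC2 1 to 3 (mean 132 ± 5.96 SD, n = 3). The groups did not overlap, but shCtrl 3 was just above shDNAJC2 3 and far below shCtrl 1 and 2. PLK1 had a log2 fold change of -0.59 (SE 0.18, unadjusted p = 0.0142, adjusted p = 0.429) in edgeR's test over 6 libraries and -0.76 (SE 0.09, adjusted p = 0.000775) without shCtrl 3. AURKA measured 162, 170.1 and 94.2 CPM in control libraries 1 to 3, against 109, 104 and 100.2 CPM in knockdown libraries 1 to 3, so that shCtrl 3 was the lowest of all. AURKA was at -0.45 (adjusted p = 0.434) over 6 libraries and fell by 0.67 (log2, adjusted p = 0.00125) over 5.

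The spindle checkpoint group, 5 genes, held both members that did not fall without shCtrl 3. BUB1, a kinase that recruits the checkpoint to kinetochores, measured 135, 149.6 and 79.3 CPM across shCtrl 1 to 3, against 91.2, 80.3 and 91.2 CPM across shDNAJC2 1 to 3. BUB1B, which encodes the checkpoint protein BubR1, measured 135, 135 and 94.7 CPM in control libraries 1 to 3, against 106, 100.4 and 104 CPM in knockdown libraries 1 to 3. In both, shCtrl 3 was below every knockdown library. Without shCtrl 3, BUB1 fell by 0.70 (log2, adjusted p = 0.00164), BUB1B by 0.38 (adjusted p = 0.0129) and TTK, the kinase that starts checkpoint signalling, by 0.48 (adjusted p = 0.0165).

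BUB3 and MAD2L1 did not pass in either fit. BUB3, the adaptor that carries BUB1 and BUB1B to the kinetochore, measured 208, 209 and 236 CPM across shCtrl 1 to 3, against 253, 244 and 211 CPM across shDNAJC2 1 to 3. shCtrl 3 was above its own group and shDNAJC2 3 below its own, and the groups overlapped. Its log2 fold change was 0.12 (95% interval -0.16 to 0.40, adjusted p = 0.621) over 6 libraries and 0.18 (-0.07 to 0.43, adjusted p = 0.219) over 5. MAD2L1, whose protein clamps CDC20 and whose values were singled out after being seen, measured 122, 125 and 106 CPM in control libraries 1 to 3, against 140.2, 125 and 115 CPM in knockdown libraries 1 to 3. shCtrl 3 was the lowest of all, and shCtrl 1 and 2 lay inside the knockdown range. Its log2 fold change was 0.11 (-0.18 to 0.39, adjusted p = 0.655) and, without shCtrl 3, 0.04 (-0.21 to 0.29, adjusted p = 0.794), and its sign turned on removal of each library's GC trend (-0.019 with and -0.053 without shCtrl 3). A fall as large as the members' median of -0.67 lay outside both genes' intervals. The promoter window of MAD2L1 held CCAAT at -229 and a CHR match at 25 bases after the start, and BUB3 had no entry in the table.

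Partners of the anaphase-promoting complex and the genes of sister separation came next. CDC20 (ENSG00000117399, chr1:43358955-43363203) measured 262, 294 and 169 CPM across shCtrl 1 to 3 (mean 242 ± 65.1 SD, n = 3), against 137, 150.03 and 150.08 CPM across shDNAJC2 1 to 3 (mean 146 ± 7.63 SD, n = 3). All knockdown libraries were below all controls, and it had the smallest p of the 40 genes. The log2 fold change was -0.73 (SE 0.21, unadjusted p = 0.00978, adjusted p = 0.429) in edgeR's test over 6 libraries and -0.93 (SE 0.10, adjusted p = 0.000491) over 5. UBE2C, the ubiquitin-conjugating enzyme of the complex, measured 160.3, 161 and 99.0 CPM in control libraries 1 to 3, against 98.9, 103 and 109 CPM in knockdown libraries 1 to 3. shCtrl 3 sat level with shDNAJC2 1. UBE2C fell by 0.63 (log2, adjusted p = 0.00158) without shCtrl 3. ESPL1, the separase that cuts cohesin, and PTTG1, the securin that restrains it, fell by 0.84 and 0.33 (adjusted p = 0.0207 and 0.0261) in that fit. Reads of PTTG1 are uncertain, since the genome holds close copies of it.

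**Figure D3:**
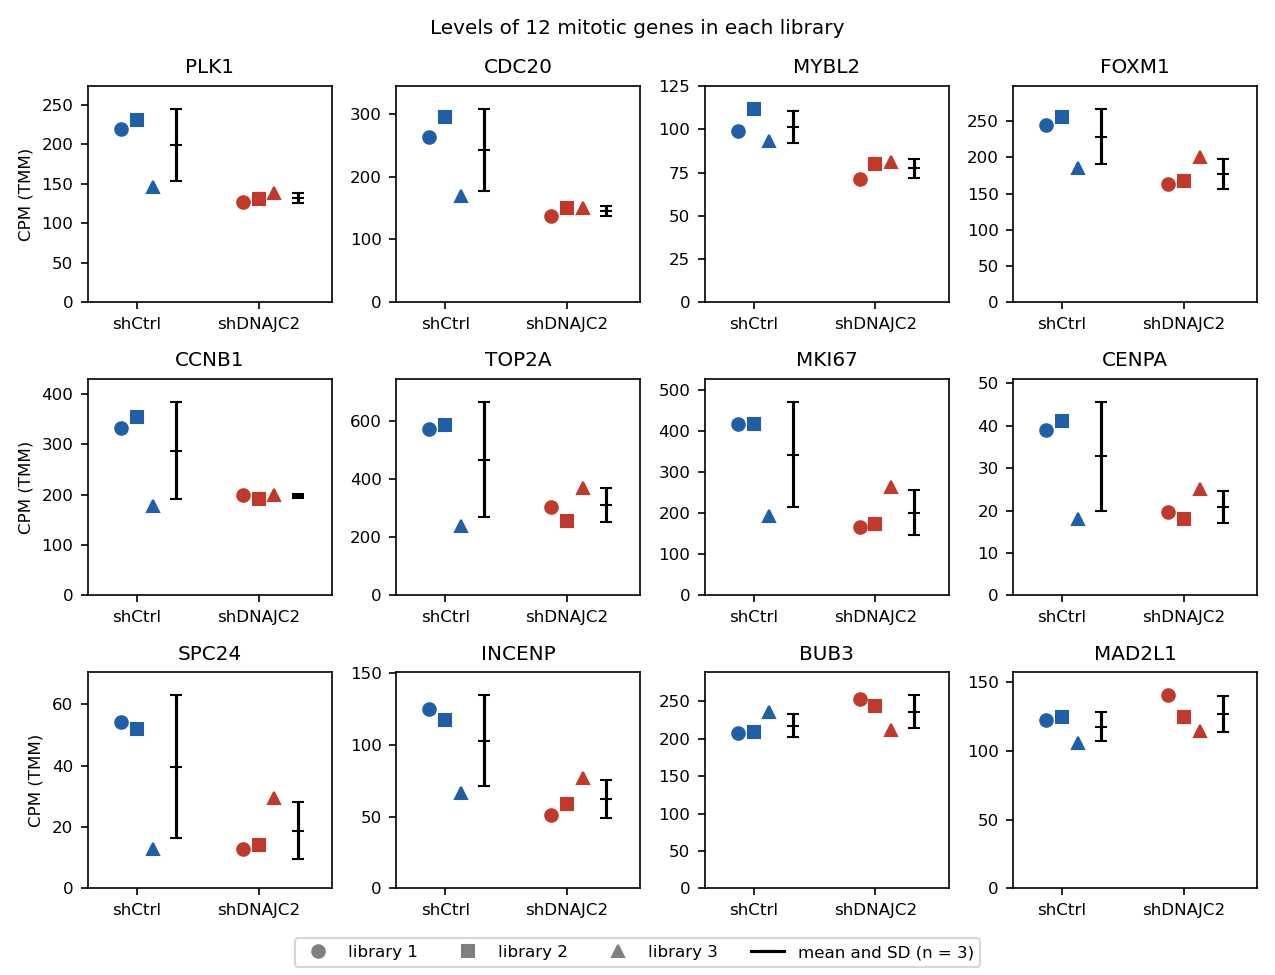
CPM of 12 mitotic genes in each library (blue, shCtrl; red, shDNAJC2; circle, square and triangle for libraries 1, 2 and 3), with the group mean and SD (black, n = 3). The blue triangle, shCtrl 3, is nearer to the red points than to the other blue ones except for MYBL2 and MAD2L1, and PLK1, CDC20 and MYBL2 are the genes in which all blue points are above all red ones.

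Kinetochore genes had a median of -0.84 without shCtrl 3 (range -1.48 to -0.40, 7 of 7 fell) and of -0.52 over all 6 libraries (none passed). CENPA, the histone variant that marks the centromere, measured 39.1, 41.2 and 18.1 CPM across shCtrl 1 to 3, against 19.6, 17.9 and 25.03 CPM across shDNAJC2 1 to 3. shCtrl 3 lay inside the knockdown range, at 45.0% of the mean of shCtrl 1 and 2. CENPA was at -0.65 (SE 0.32, adjusted p = 0.432) over 6 libraries and fell by 0.94 (log2, adjusted p = 0.00219) over 5. CENPF, a large protein of the outer kinetochore corona, measured 231, 228 and 152 CPM in control libraries 1 to 3, against 154, 141 and 173 CPM in knockdown libraries 1 to 3, and fell by 0.55 (adjusted p = 0.00619) without shCtrl 3. CENPE, the kinetochore kinesin, was at -0.90 in the same fit (adjusted p = 0.00376).

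The NDC80 complex, a rod of NDC80, NUF2, SPC24 and SPC25 that grips microtubules, is covered whole by the kinetochore group. Without shCtrl 3, NDC80 and NUF2 fell by 0.40 and 0.48 (log2, adjusted p = 0.0165 and 0.0128), while SPC25 was at -0.84 and SPC24 at -1.48 (adjusted p = 0.00343 and 0.00667); these differences between the subunits were not tested. SPC24, given in full because its fold was the largest seen, measured 54.2, 52.1 and 12.8 CPM across shCtrl 1 to 3, against 12.8, 14.2 and 29.6 CPM across shDNAJC2 1 to 3. It was level in shCtrl 3 and shDNAJC2 1 and higher in shDNAJC2 3, though below shCtrl 1 and 2. The SE of its log2 fold change was 0.57 over 6 libraries, the widest of the 40.

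The chromosomal passenger complex, in which INCENP, CDCA8 and BIRC5 place the kinase AURKB at centromeres and later at the midzone, had the lowest median of the 8 role groups in both fits. It was -0.61 over 6 libraries (none passed) and -0.85 without shCtrl 3 (4 of 4 fell). INCENP measured 125, 117 and 66.7 CPM across shCtrl 1 to 3, against 51.3, 58.6 and 76.7 CPM across shDNAJC2 1 to 3. CDCA8, which encodes borealin, measured 128, 136 and 74.1 CPM in control libraries 1 to 3, against 67.7, 68.2 and 78.3 CPM in knockdown libraries 1 to 3. In both genes shCtrl 3 was above shDNAJC2 1 and 2 and below shDNAJC2 3. Over 6 libraries INCENP was at -0.73 (SE 0.26, unadjusted p = 0.0293) and CDCA8 at -0.66 (SE 0.23, unadjusted p = 0.0246) in edgeR's test, both with an adjusted p of 0.429. Without shCtrl 3 they fell by 0.95 and 0.88 (adjusted p = 0.00249 and 0.000599). BIRC5, or survivin, measured 185, 189 and 124 CPM in control libraries 1 to 3, against 127, 123 and 127 CPM in knockdown libraries 1 to 3. Its knockdown values were close together, and shCtrl 3 lay among them. BIRC5 fell by 0.57 (adjusted p = 0.00214) without shCtrl 3, and AURKB by 0.81 (adjusted p = 0.00524).

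Spindle assembly and cytokinesis genes, 8 in number, all fell without shCtrl 3 (median -0.67, range -1.06 to -0.49), and none passed over 6 libraries (median -0.44). TPX2, the activator of AURKA at the spindle, measured 290.4, 310.0 and 207 CPM across shCtrl 1 to 3, against 225, 206 and 199 CPM across shDNAJC2 1 to 3. ANLN, the anillin scaffold of the contractile ring, measured 336, 326 and 176 CPM in control libraries 1 to 3, against 199.8, 182 and 204 CPM in knockdown libraries 1 to 3. For TPX2 shCtrl 3 was inside the range of the knockdown libraries, and for ANLN it was the lowest. TPX2 was at -0.36 and ANLN at -0.52 over 6 libraries (both adjusted p = 0.430), and they fell by 0.51 and 0.76 (adjusted p = 0.00634 and 0.00104) over 5. DLGAP5, a spindle microtubule stabiliser, was second to SPC24 in size without shCtrl 3, at -1.06 (SE 0.12, adjusted p = 0.000537); it was chosen after its values were seen.

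The last group holds the activators of the programme and its common markers. MYBL2 (ENSG00000101057, chr20:43667019-43716496), the B-Myb factor that joins MuvB at CHR promoters, measured 98.8, 112 and 93.3 CPM across shCtrl 1 to 3 (mean 101 ± 9.42 SD, n = 3), against 71.3, 80.0 and 81.0 CPM across shDNAJC2 1 to 3 (mean 77.4 ± 5.35 SD, n = 3). The groups did not overlap, and MYBL2 was the gene for which shCtrl 3 had the most of the level of shCtrl 1 and 2 among the 38 that fell, 88.7%. Its log2 fold change was -0.39 (SE 0.11, unadjusted p = 0.0108, adjusted p = 0.429) with and -0.44 (SE 0.10, adjusted p = 0.0134) without shCtrl 3, the smallest SE of the members over 6 libraries. FOXM1, the forkhead factor of the same promoters, measured 244, 256 and 185 CPM in control libraries 1 to 3, against 163, 167 and 201 CPM in knockdown libraries 1 to 3. Here shDNAJC2 3 was above shCtrl 3, and FOXM1 was at -0.37 (adjusted p = 0.429) and, without shCtrl 3, fell by 0.50 (adjusted p = 0.0125).

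TOP2A, the topoisomerase that untangles sister chromatids, and MKI67, the Ki-67 antigen used to count dividing cells, had a wider spread. TOP2A measured 575, 589 and 238 CPM across shCtrl 1 to 3, against 306, 256 and 372 CPM across shDNAJC2 1 to 3. MKI67 measured 416, 416 and 194 CPM in control libraries 1 to 3, against 168, 173 and 265 CPM in knockdown libraries 1 to 3. shCtrl 3 was the lowest library for TOP2A and the third lowest for MKI67, and shDNAJC2 3 was the highest knockdown library for both. TOP2A was at -0.59 (SE 0.35, adjusted p = 0.458) and MKI67 at -0.76 (SE 0.33, adjusted p = 0.429) over 6 libraries, and they fell by 0.90 and 1.04 (adjusted p = 0.00283 and 0.00385) over 5.

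Per length of the longest annotated transcript, levels in shCtrl 1 and 2 spanned from 176 CPM per kilobase for UBE2C to 8.28 for CENPE. UBE2C was followed by CCNB1 (158), CDC20 (157), PTTG1 (138) and TOP2A (101). In the knockdown libraries UBE2C stood at 113 and CENPE at 4.41 CPM per kilobase, and PTTG1 (109) was above CCNB1 (90.7) and CDC20 (82.0). The scale depends on the transcript chosen, which need not be the one expressed.

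The position of shCtrl 3 among the libraries went with base composition. The 9 members in which shCtrl 3 was above shDNAJC2 1 and 2 (CDC25B, PLK1, CDC20, ESPL1, INCENP, CDCA8, FOXM1, MYBL2 and MKI67) had transcripts of 48.3% to 60.5% GC (median 57.1%). The 25 in which it was below both had 35.3% to 53.4% GC (median 41.4%). Across the 40 genes, Pearson's r between GC content and the log2 gap from shDNAJC2 1 and 2 to shCtrl 3 was 0.842. Across 13811 tested genes with a GC value it was 0.701, and the median gap was -0.22 in the 25% of genes with the lowest GC and 0.31 in the 25% with the highest. These are correlations across genes of the same libraries, and genes are not independent replicates. The log2 difference from shCtrl 1 and 2 to the knockdown libraries also went with GC content. Its median was 0.099 in the 25% of genes with the lowest GC and -0.18 in the 25% with the highest. It was -0.84 in the 11 members above 50% GC and -0.64 in the 29 others. The fit without shCtrl 3 rests on this difference. Across the 40 genes, Pearson's r between GC content and the log2 fold change of that fit was -0.259. Median GC content was 44.1% in the members and 48.45% in all genes tested. PLK1, CDC20 and MYBL2, the members whose groups did not overlap, had 57.1%, 57.9% and 60.5% GC. After removal of each library's GC trend, an alternative added after the data had been seen, the groups of PLK1 overlapped and CDC20 and MYBL2 still had no overlap. The share of all genes without overlap is not given for that setting, so this is no result about the members. The median log2 fold change of the members was then -0.47, against 0.003 over all genes tested. The part of GC content in the position of shCtrl 3 was otherwise not tested.

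**Figure D4:**
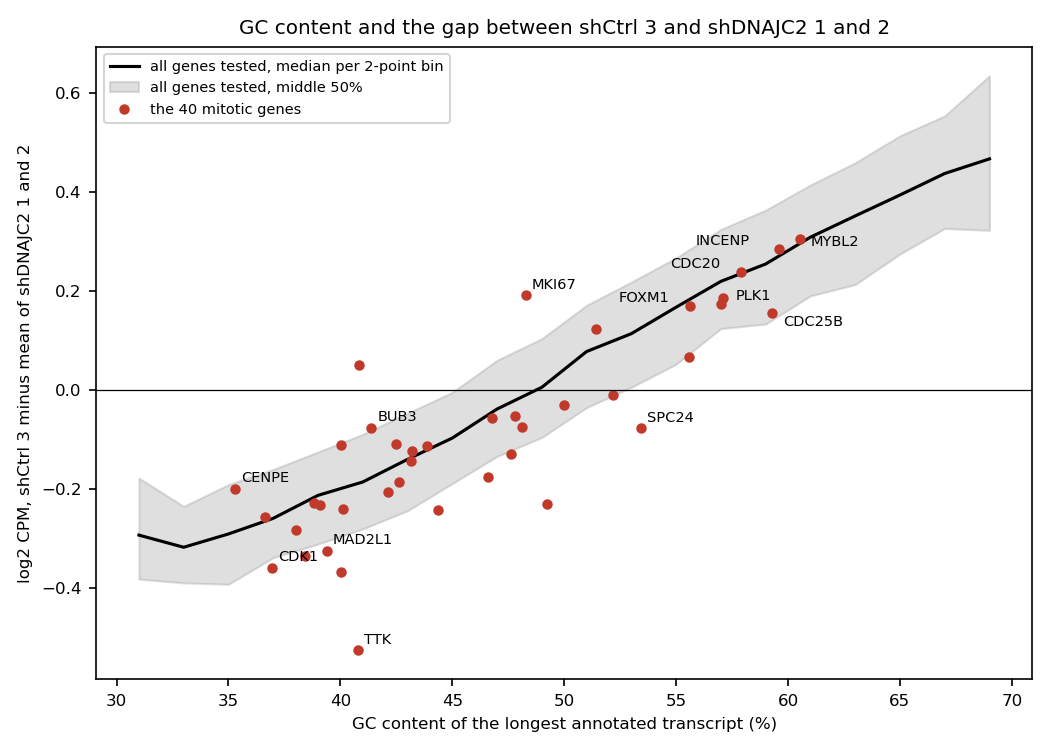
Log2 CPM of shCtrl 3 minus the mean of shDNAJC2 1 and 2 (vertical axis) against the GC content of the longest annotated transcript in percent (horizontal axis); red points are the 40 mitotic genes, and the black line and grey band give the median and middle 50% of all tested genes in bins of 2 percentage points. Most mitotic genes follow the line of all genes, from CDK1 below 0 to MYBL2 above it.

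Other genes of the same processes are counted here against all 14201 genes tested without shCtrl 3, of which 17.0% fell and 17.8% rose. Of 29 other kinetochore and centromere genes, 8 fell and 3 rose (27.6% and 10.3%, median -0.13); of 27 other regulators of mitotic entry and exit, 10 fell and 2 rose (37% and 7.41%, median -0.17). Of 29 other spindle, centrosome and midbody genes, 17 fell and 1 rose (58.6% and 3.45%, median -0.38). Of 23 condensin and cohesin genes 8 fell and 2 rose (34.8% and 8.7%, median -0.19), and of 17 subunits and regulators of the anaphase-promoting complex 3 fell and 2 rose (17.6% and 11.8%, median -0.04). Of 24 MuvB, DREAM, E2F and NF-Y regulators 4 fell and 6 rose (16.7% and 25%, median 0.13), and of 31 DNA replication genes 3 fell and 2 rose (9.68% and 6.45%, median 0.14). The shares that fell in the last 3 of these lists were near or below the share of all genes, and are no result about them. Over all 6 libraries no gene of these lists passed, and the list medians lay between -0.26 and 0.05. No test set the lists against one another.

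In each list the 2 genes with the smallest unadjusted p over 6 libraries are described here by their change without shCtrl 3. CENPU and CENPQ, subunits of the inner kinetochore, rose by 0.35 and 0.68 on the log2 scale (adjusted p = 0.0313 and 0.00728). PKMYT1, an inhibitor of CDK1, and GTSE1, a microtubule-binding protein of mitotic cells, had values of -0.44 and -0.999 (adjusted p = 0.0203 and 0.000514), both past the threshold. FZR1, the other activator of the anaphase-promoting complex, measured 97.6, 101 and 78.8 CPM across shCtrl 1 to 3, against 51.9, 63.7 and 69.8 CPM across shDNAJC2 1 to 3. Its groups did not overlap, and it fell by 0.68 (adjusted p = 0.00489). UBE2S, which extends the ubiquitin chains, was at -0.30 (adjusted p = 0.0644). FAM83D, a spindle protein, measured 77.9, 76.8 and 46.3 CPM in control libraries 1 to 3, against 37.2, 39.5 and 41.5 CPM in knockdown libraries 1 to 3, with no overlap; it fell by 0.97 (adjusted p = 0.000338).

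In the same fit HAUS6, a subunit of the augmin complex, rose by 0.42 (log2, adjusted p = 0.0232), and the cohesin genes STAG2 and PDS5A rose by 0.31 and 0.29 (adjusted p = 0.0477 and 0.0399). RFC4, a clamp loader subunit, rose by 0.40 (adjusted p = 0.0145), while POLD1, the catalytic subunit of a replicative polymerase, was at -0.24 (adjusted p = 0.156). RBL1, the p107 protein of the repressive DREAM complex, was at 0.28 (adjusted p = 0.0630). MYBL1, the relative of MYBL2, measured 56.2, 51.3 and 25.4 CPM across shCtrl 1 to 3, against 29.9, 25.3 and 32.3 CPM across shDNAJC2 1 to 3, and fell by 0.87 (adjusted p = 0.00146). In shCtrl 3 the level of MYBL1 lay among the knockdown libraries, and that of MYBL2 did not. Over all 6 libraries, PKMYT1, FZR1, UBE2S, FAM83D and POLD1 were lower in the knockdown without overlap. CENPU, CENPQ, STAG2, PDS5A, HAUS6, RBL1 and RFC4 were higher without overlap. Of the 149 genes in the lists other than DNA replication, 10 were lower and 13 higher without overlap. Among all 13988 genes tested, 1179 (8.43%) were lower and 1025 higher, so these shares were near the background.

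**Figure D5:**
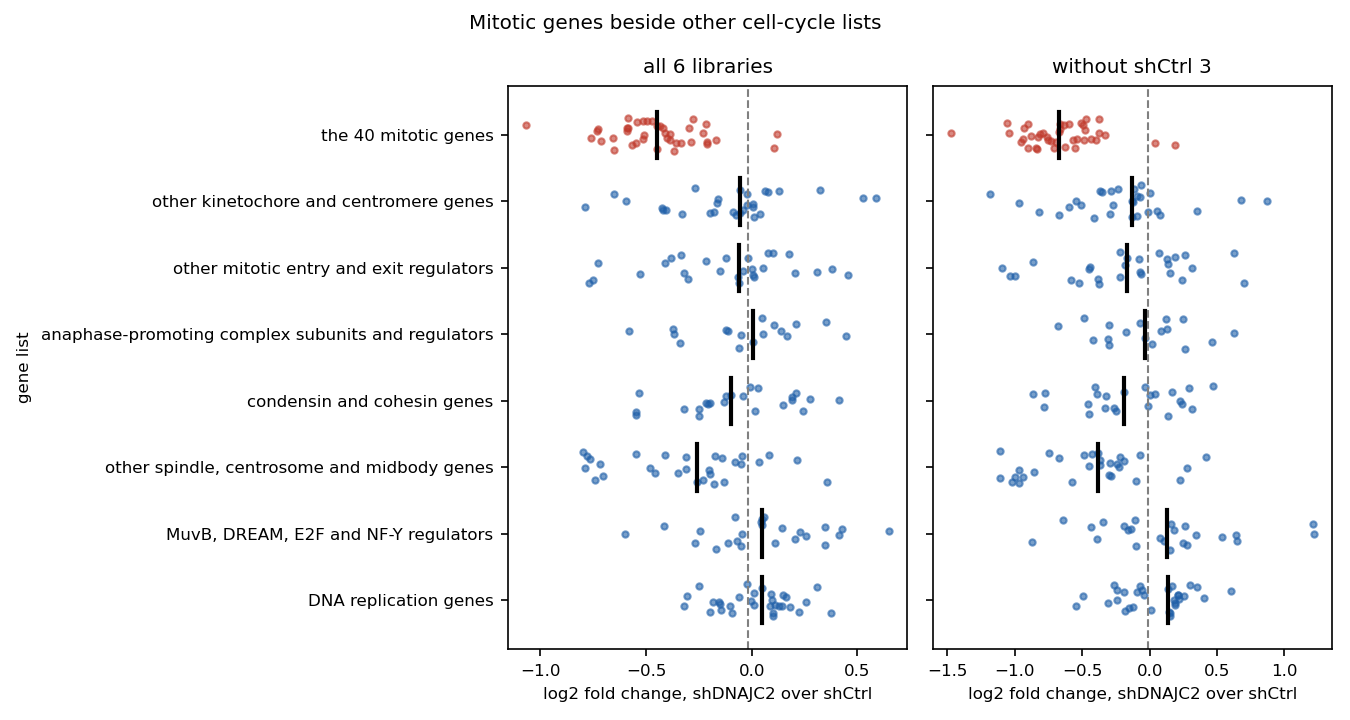
Fitted log2 fold change (shDNAJC2 over shCtrl) of each gene of the 40 mitotic genes (red) and of 7 other lists (blue), over all 6 libraries (left) and without shCtrl 3 (right); black bars are list medians and the dashed line is the median of all tested genes. The mitotic genes have the lowest median in both panels, -0.45 and -0.67, and the MuvB and DNA replication lists have medians above 0 in both.

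Counting of some members is uncertain. By the GENCODE annotation, 14 of the 40 overlap an exon of another gene, 11 of them one on the opposite strand, and 9 have a pseudogene named after them (UBE2C has 4). The shared part is largest in NUSAP1 (62.2% of exon bases) and PRC1 (58.4%), and it is 15.9% in FOXM1 and 12.5% in PLK1. CDC20, MYBL2, INCENP, CDCA8 and MKI67 overlap no other exon, although CDC20 and MKI67 each have a pseudogene named after them.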

How the data were processed

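RNA of 6 ACHN libraries had been enriched for mRNA and sequenced as paired ends on an Illumina platform, per the labels' protocols. The authors deposited raw counts of reads per gene, with no normalization, in 1 table for all libraries; the values are whole numbers whose totals differ between libraries. The build was GRCh38 per the submitters' processing notes. The aligner, counter, annotation release and strand setting are not given in the sources used here. Columns were matched to libraries by their titles, and no other column was used.

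All genes were fitted with edgeR 4.0.16 (R 4.3.3): quasi-likelihood test, two-sided, TMM scaling, filterByExpr, group as the only term, and Benjamini-Hochberg adjustment over all genes tested, with a threshold of 0.05. Log2 CPM used a prior count of 2, and confidence intervals are at 95%. Medians and counts over lists are descriptions, with no test. With 3 libraries against 3, an exact permutation test of a single gene cannot give a p under 0.1 and was not used. Alternatives were DESeq2 1.42.0, limma-voom (limma 3.58.1), other size factors, 2 other low-count filters, a block for replicate number and leaving out each library. Removing the GC trend of each library (lowess with a span of 0.3, used as offsets) was added after seeing the data. Gene positions, lengths and GC content came from GENCODE 29 (GRCh38), which matched 20279 of the identifiers, with the longest transcript of each gene. Promoter sequence came from the RefSeq table on GRCh38.p14. The edgeR fit was run on simulated counts in which no control library stood apart and the dispersion was capped. That run does not cover the spread seen within shCtrl.

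Values in every library are given for the member with the highest mean CPM and the 2 with the smallest p in each of 8 role groups, for members whose groups do not overlap, and for MKI67, FOXM1, MYBL2 and TOP2A; of each other list the 2 genes with the smallest p are named. Others are said to have been chosen after their values were seen. The members and lists were chosen with earlier results of these data known.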

Additional observations from a re-analysis of the deposited data

How the results depend on the processing

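The negative median log2 fold change of the 40 genes kept its direction under every alternative run; leaving out each library in turn gave -0.6693 (without shCtrl 3) to -0.2995 (without shCtrl 2), and no alternative that kept shCtrl 3 called any member. Leaving out each library gave 0 to 38 members called lower and 0 called higher, 0 to 2413 genes called lower and 0 to 2532 called higher in the whole table, and 3 to 38 members whose groups did not overlap; every count above 0 of called genes came from leaving out shCtrl 3, and leaving out shDNAJC2 3 raised the members without overlap to 9. Of all tested genes, 8.43% had every knockdown library below every control over 6 libraries, and 32.8% did without shCtrl 3. That share is not given for the other settings, so the 9 members are no result about these genes. The log2 fold change of DNAJC2 ranged from -0.8055 to -0.598 when each library was left out. DESeq2 called 29 genes lower and 6 higher in the whole table, among them DNAJC2 (-0.7263, adjusted p = 0.0364) and no member; the cause of the difference from edgeR was not tested. With the GC trend removed and shCtrl 3 left out together, 38 members were called lower and 38 had no overlap. Of the 14201 genes tested without shCtrl 3, 2436 were called lower and 2854 higher in that setting. DNAJC2 was at -0.7051 (adjusted p = 0.00622). The share of all genes without overlap is not given for that setting, so the 38 without overlap are no result about these genes. MAD2L1 turned sign when the GC trend was removed (-0.01852) and when shCtrl 3 was also left out (-0.05331), while no other member changed sign under any alternative; the cause was not tested. Same-numbered libraries of the groups did not deviate together (correlations -0.382, -0.5212 and -0.664). With 3 libraries a group and shCtrl 3 apart, these values cannot show whether same-numbered libraries were prepared together, which the labels do not say. The fit with the replicate number as a block called no gene, with a median of the members of -0.4048 and DNAJC2 at -0.7408. Groups without overlap were not counted under DESeq2, limma-voom or the block, which give no other CPM. With 3 libraries a group, 1 of which stands apart, the spread within shCtrl limits what can be called; the lowest count of a member was 237, so counting error was small beside that spread.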
